A study of Mus musculus with 9 samples.

Results

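The G1 cyclins, their kinases and the inhibitors of these kinases set whether a cell passes from the first gap phase (G1) into DNA synthesis or leaves the cycle. Here 9 genes of this group were followed in the developing mouse olfactory bulb: the D cyclins Ccnd1, Ccnd2 and Ccnd3, the kinases Cdk4 and Cdk6, the Cip/Kip inhibitors Cdkn1a and Cdkn1b, and the INK4 inhibitors Cdkn2c and Cdkn2d. These are 9 of the 18194 genes with a probe set of their own on the array. They were read by every probe set whose only gene symbol was one of the 9 names, which gave 25 of the 45101 probe sets. Each age from embryonic day 11 (E11) to E18 and the day of birth (P0) was represented by 1 array, hybridised with amplified RNA from the bulbs of a single CD1 animal, without treatment or mutation. No age had a replicate, so the error of a trend was the scatter of the 9 animals around it, which holds biological and technical spread together. All levels below are log2 values on the scale of the deposited table.

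Progenitors of the bulb divide at the ventricle, and their daughters stop dividing as they become mitral, tufted and later granule and periglomerular neurons. D cyclins are made in response to growth signals, bind Cdk4 or Cdk6 and start the phosphorylation of the retinoblastoma protein, which releases E2F factors to switch on genes of DNA synthesis. INK4 proteins bind Cdk4 and Cdk6 and keep D cyclins off, while Cip/Kip proteins bind cyclin and kinase complexes and block those of Cdk2. The messenger level does not show protein or kinase activity, and several of these proteins, Cdkn1b above all, are known to be controlled by breakdown. In RNA of a whole bulb, fewer cells of a type and less RNA per cell cannot be told apart.

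Of the 25 probe sets, 22 read log2 5 or more on at least 2 arrays and were tested, and all 9 genes had at least 1 of these. The 3 left out, for Ccnd3 (2) and Cdk6 (1), read at most 2.94 on any array. Against age, 12 of the 22 fell, 2 rose and 8 did not pass (limma, Benjamini-Hochberg over the 18566 probe sets tested, adjusted p under 0.05). Over all 18566 probe sets, 22.0% fell and 22.1% rose by the same rule. The 12 that fell were all for Ccnd1, Ccnd2 and Cdk4, and both that rose were for Cdkn1a. Counted as genes by the probe set with the highest mean, 3 of 9 fell, 1 rose and 5 did not pass, where 21.7% of the 10864 genes fell and 25.0% rose. The median slope of the 22 was -0.12 log2 units per day, and that of all probe sets tested was -0.0051. Since probe sets of 1 gene share a transcript, the count of probe sets is not a count of independent results.

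**Figure D1:**
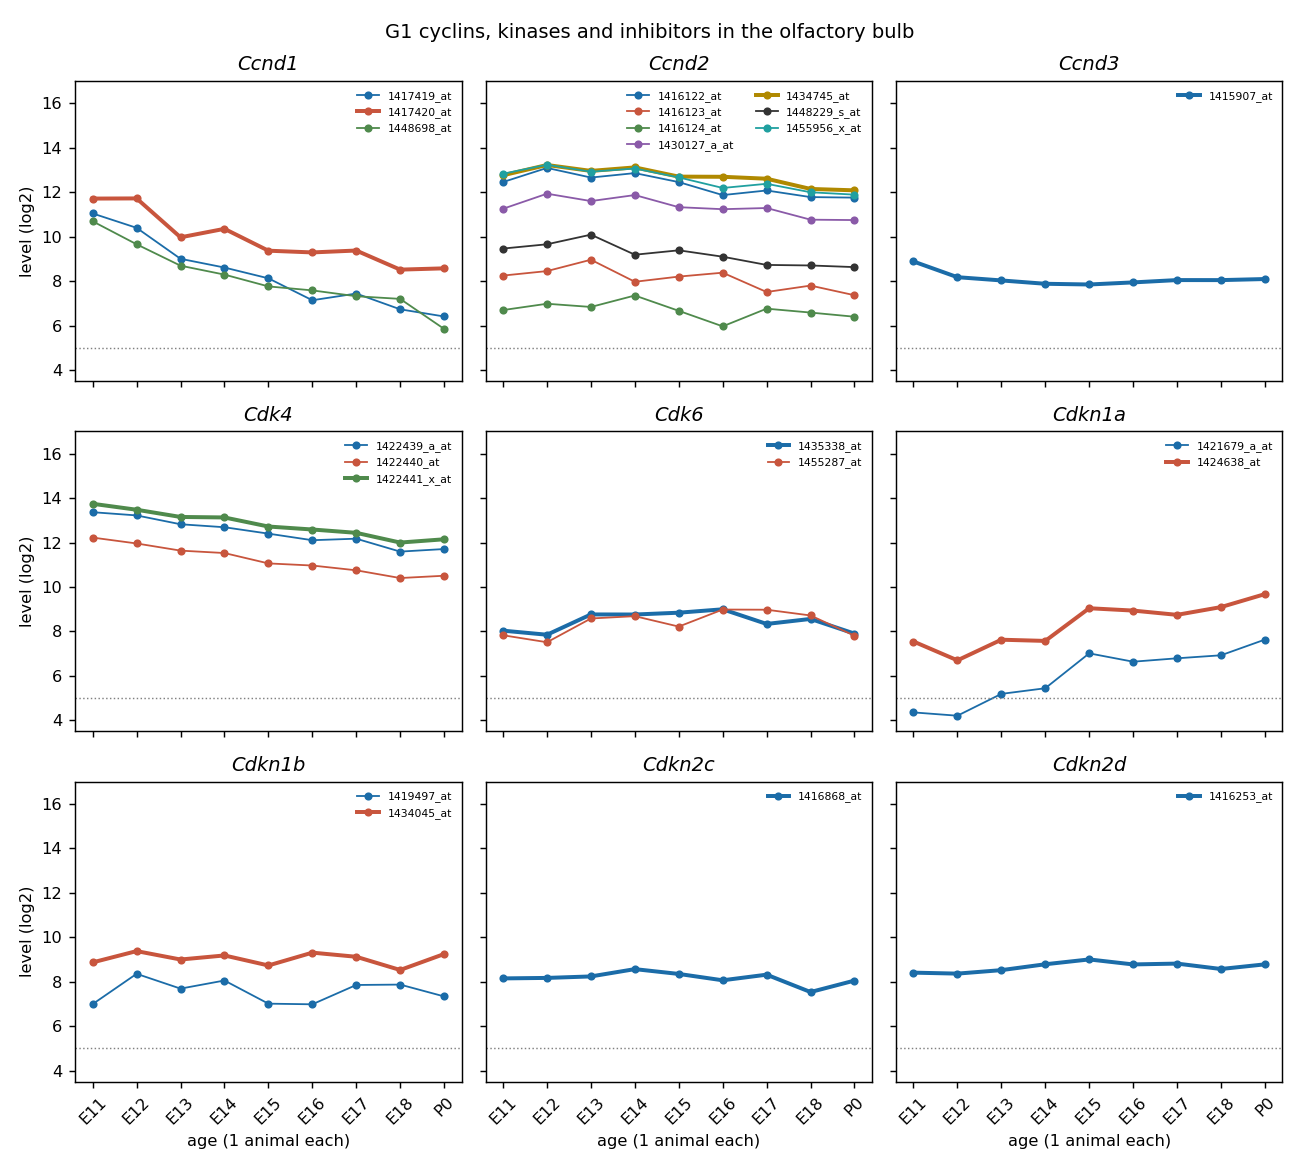
Level (log2, vertical axis) of the 22 tested probe sets of the 9 genes at each age from E11 to P0 (horizontal axis), 1 animal per age. Each line is a probe set, the thick one that with the highest mean, and the dotted line is log2 5. All lines of Ccnd1 and Cdk4 run down, both of Cdkn1a run up, and those of Cdkn1b, Cdkn2c and Cdkn2d show no trend past the test.

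Ccnd1, the D cyclin that links growth factor and Wnt signals to the cycle, fell most. Its probe set with the highest mean, 1417420_at, read 11.71 at E11, 11.72 at E12, 9.97 at E13, 10.35 at E14, 9.37 at E15, 9.29 at E16, 9.37 at E17, 8.51 at E18 and 8.57 at P0. The readings at E11 and E12 stood above all later ones, and E18 and P0 below all earlier ones. The slope was -0.41 ± 0.051 log2 units for each day (± standard error, 9 arrays, limma adjusted p = 0.000195), and the level at P0 was 8.81-fold lower than at E11. Probe set 1417419_at read 6.41 at P0 and 11.04 at E11, 24.8-fold lower, with a slope of -0.57 ± 0.048. Probe set 1448698_at read 5.85 at P0 and 10.69 at E11, 28.6-fold lower, with a slope of -0.50 ± 0.047. Courses of the 3 correlated pairwise at r between 0.94 and 0.97 over the 9 arrays, all of which share the trend with age. Probe sets thus put the size of the fall anywhere between 8.81-fold and 28.6-fold.

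Most of the gap between E11 and P0 in each of the 3 probe sets had opened by E15. From E12 to E13, 1417420_at changed by -1.75, 1417419_at by -1.39 and 1448698_at by -0.96 log2 units, so that 2 of the 3 dropped by 1 log2 unit or more in that day. The largest drop of 1448698_at came instead between E18 and P0 (-1.35). Of all probe sets tested, 2.87% dropped by 1 log2 unit or more between E12 and E13, a comparison of 2 single animals with no test. A squared term added to the model, which measures curvature, did not pass for any of the 3 (lowest limma adjusted p = 0.0739, for 1417419_at). That term did pass for 1417419_at with P0 placed at day 20 (adjusted p = 0.0301) and for 1448698_at without the P0 array (adjusted p = 0.0200).

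Ccnd2, the D cyclin of forebrain progenitors whose messenger is carried to the basal processes of radial glia, fell much less. Probe set 1434745_at read 12.76 at E11, 13.22 at E12, 12.96 at E13, 13.11 at E14, 12.70 at E15, 12.69 at E16, 12.61 at E17, 12.15 at E18 and 12.08 at P0. The highest reading came at E12 and the lowest at P0. Its slope was -0.12 ± 0.027 (n = 9 arrays, limma adjusted p = 0.00564), and P0 was 1.60-fold lower than E11. Of 7 Ccnd2 probe sets 6 fell, with slopes between -0.16 for 1455956_x_at and -0.11 for 1430127_a_at, and 1416124_at did not pass (slope -0.066, adjusted p = 0.245). Calls of a pair of them rested on single arrays. That of 1416123_at (adjusted p = 0.0263) ended without E12 (0.0527), E17 (0.0533) or P0 (0.112), and that of 1430127_a_at (adjusted p = 0.0223) without E12 (0.0709), E18 (0.0692) or P0 (0.0929). Agreement among the 7 was uneven, with pairwise r between 0.095 and 0.99 over the 9 arrays.

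Ccnd3, the third D cyclin, had 1 tested probe set, 1415907_at. It read 8.88 at E11, 8.17 at E12, 8.03 at E13, 7.88 at E14, 7.85 at E15, 7.94 at E16, 8.04 at E17, 8.04 at E18 and 8.09 at P0. E11 stood above the other 8 arrays, which spanned a narrow range. The slope did not pass (-0.058 ± 0.035, limma adjusted p = 0.205), nor did the squared term (0.037, adjusted p = 0.0709). Without the E11 array the slope was 0.0010 (adjusted p = 0.980).

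The 3 D cyclins changed unequally. The within-array difference of Ccnd1 minus Ccnd2 had a slope of -0.29 ± 0.065 log2 units per day (n = 9 arrays, exact permutation test over all orders of the arrays, two-sided p = 0.000375, adjusted p = 0.00155 over the 6 pairs of paralogs compared). Over E13 to P0 alone this slope was -0.11 (exact permutation test, adjusted p = 0.050) and did not pass. Ccnd1 minus Ccnd3 had a slope of -0.35 ± 0.055 (exact permutation test, p = 0.000518, adjusted p = 0.00155), with adjusted p of at most 0.0135 whichever array was left out. Ccnd2 minus Ccnd3 had a slope of -0.060 ± 0.064 and did not pass (exact permutation test, p = 0.366, adjusted p = 0.366). The last depended on E11, where Ccnd3 was high: without that array the slope was -0.16 (exact permutation test, adjusted p = 0.00625), and over E13 to P0 -0.19 (adjusted p = 0.0214).

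**Figure D2:**
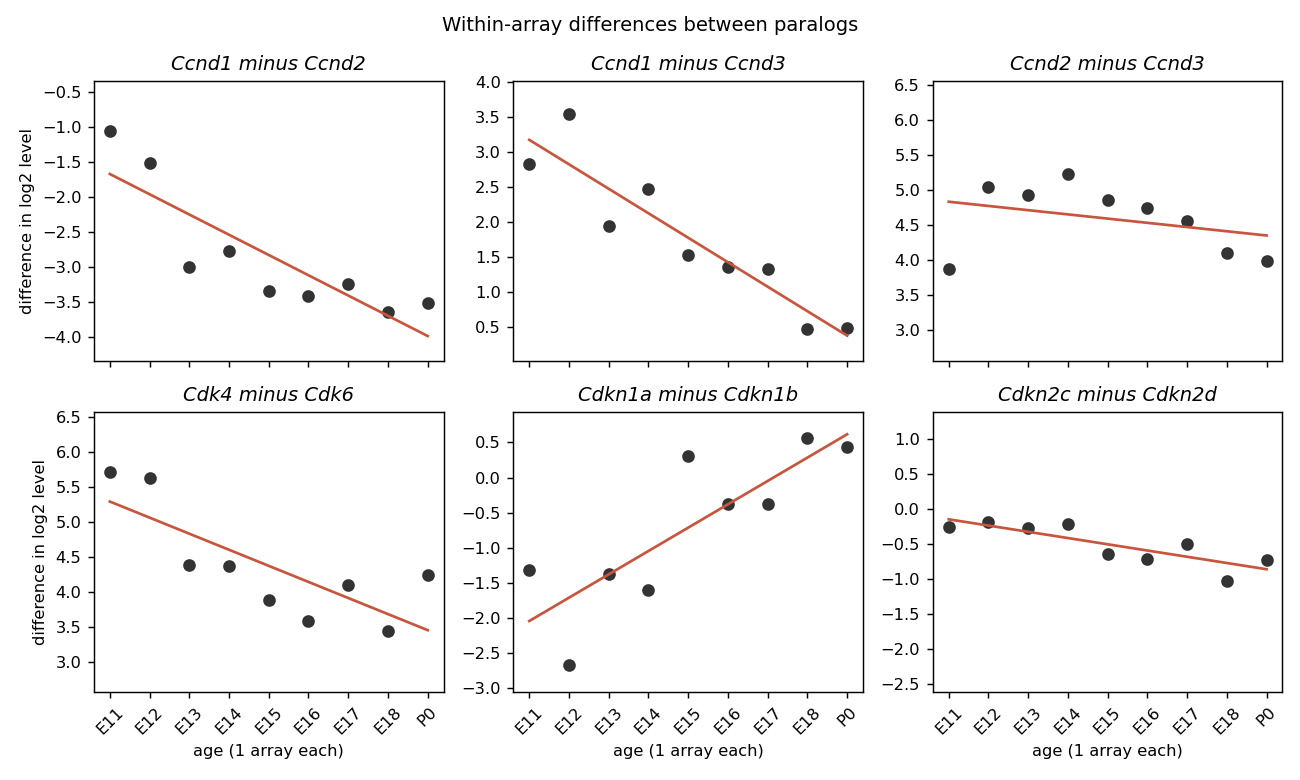
Difference in log2 level between the 2 genes of each pair of paralogs (vertical axis, each panel spanning the same range) at each age (horizontal axis, 1 array each), with the fitted line. Only the slope is read, since levels of different probe sets are not on a common scale. The slope ran from -0.35 for Ccnd1 minus Ccnd3 to 0.33 for Cdkn1a minus Cdkn1b, and only Ccnd2 minus Ccnd3 did not pass.

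Cdk4, the catalytic partner of D cyclins and a known target gene of Myc, fell steadily. Probe set 1422441_x_at read 13.74 at E11, 13.47 at E12, 13.15 at E13, 13.13 at E14, 12.72 at E15, 12.59 at E16, 12.44 at E17, 12.00 at E18 and 12.15 at P0. Every step was downward except that to P0. The slope was -0.21 ± 0.017 (n = 9 arrays, limma adjusted p = 1.42e-05), and P0 was 3.03-fold lower than E11. The other probe sets, 1422439_a_at and 1422440_at, had slopes of -0.22 ± 0.018 and -0.23 ± 0.018 and were 3.15-fold and 3.29-fold lower at P0 than at E11. Courses of the 3 correlated at r between 0.989 and 0.998, so that Cdk4 was the member on which probe sets differed least.

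The promoter of Cdk4 is shown because its course can be set beside those of the Myc genes, whose proteins bind the E box. RefSeq promoter windows (build GRCm38.p6), from 250 bases before to 50 after a transcript start, were found for 7 of the 9 genes, in 10 windows. Ccnd1 and Ccnd2 had no window, so their promoters were not searched. The 250 bases before the start of Cdk4, at chr10:127063285-127063534 on the plus strand, are printed 5′ to 3′ with each E box (CACGTG) in capitals.
Cdk4: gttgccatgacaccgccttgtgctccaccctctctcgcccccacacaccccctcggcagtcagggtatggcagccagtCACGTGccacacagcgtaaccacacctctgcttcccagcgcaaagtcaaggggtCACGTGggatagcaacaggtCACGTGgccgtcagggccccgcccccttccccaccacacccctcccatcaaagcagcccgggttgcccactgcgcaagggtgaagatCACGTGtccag
The E box reads the same on both strands and occurred 4 times in this window. Of 32851 promoter windows of the same kind, 7.15% held at least 1 and 0.0244% held 4 or more. Among the other members' windows, that of Cdk6 and 1 of the windows of Cdkn2c held 1 each. The E2F motif TTTNGCGC and the CRE motif TGACGTCA, searched on both strands, matched in none of the 10 windows, and in 1.38% and 1.79% of all windows. GC boxes (GGGCGG, both strands), found in 35.7% of all windows, occurred 5 times in the Cdkn2d window, 4 times in 1 of the windows of Cdkn2c and 3 times in that of Cdk4, with 2 or fewer in the others. A match is a description of letters and no evidence of binding. The Myc genes, singled out after their values were seen, did not follow 1 course: Mycl, 6.88 at P0 and 7.48 at E11, fell (slope -0.16 ± 0.046, limma adjusted p = 0.0163). Mycn, 10.10 at P0 and 10.43 at E11, did not pass for a slope (-0.028, limma adjusted p = 0.482) but was called a peak (squared term -0.035, adjusted p = 0.0404, turning at day 14.6). Myc, 8.22 at P0 and 6.21 at E11, did not pass for a slope (0.11, adjusted p = 0.278).

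Cdk6, the other partner of D cyclins, had no slope past the test, and 1 of its 2 tested probe sets was called a peak. Probe set 1435338_at read 8.03 at E11, 7.85 at E12, 8.76 at E13, 8.76 at E14, 8.84 at E15, 9.0 at E16, 8.34 at E17, 8.56 at E18 and 7.90 at P0. The readings from E13 to E18 stood above those of E11, E12 and P0. Its slope did not pass (0.016 ± 0.052, limma adjusted p = 0.822). The squared term passed (-0.059 ± 0.014, adjusted p = 0.0410), with the turning point at day 15.1 and a fitted height of 0.94 log2 units over the mean of the fitted ends. By this rule 1 of the 22 was a peak and 0 a dip, where 4.07% of all probe sets were peaks and 0.862% dips. Probe set 1455287_at read 7.83 at E11, 7.51 at E12, 8.58 at E13, 8.69 at E14, 8.22 at E15, 8.98 at E16, 8.98 at E17, 8.72 at E18 and 7.81 at P0. It had the same curvature (-0.058 ± 0.019), whose adjusted p of 0.118 did not pass, and its slope (0.077, adjusted p = 0.319) passed without the P0 array (0.17, adjusted p = 0.0248).

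The peak call of Cdk6 was narrow. It ended without the E11 (limma adjusted p = 0.0728), E13 (0.0566), E14 (0.0803), E15 (0.106), E16 (0.0922), E18 (0.0624) or P0 array (0.186), although the squared term stayed negative in each. Cdk4 and Cdk6 changed unequally over the whole course (Cdk4 minus Cdk6, -0.23 ± 0.069 log2 units per day, n = 9 arrays, exact permutation test, p = 0.0115, adjusted p = 0.0138). This difference was lost without the E11 array (-0.18, exact permutation test, adjusted p = 0.0540) and over E13 to P0 (-0.074, adjusted p = 0.335).

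Cdkn1a, which encodes the inhibitor p21 and is the best known target gene of p53, was the one member that rose. Probe set 1424638_at read 7.55 at E11, 6.70 at E12, 7.63 at E13, 7.57 at E14, 9.04 at E15, 8.94 at E16, 8.75 at E17, 9.09 at E18 and 9.68 at P0. Readings from E11 to E14 were at most 7.63, and those from E15 to P0 at least 8.75. This split was placed at the largest step, and the share of all probe sets that part there was not counted. The slope was 0.32 ± 0.053 (n = 9 arrays, limma adjusted p = 0.000957), and P0 was 4.38-fold higher than E11. Probe set 1421679_a_at read 4.36 at E11, 4.21 at E12, 5.19 at E13, 5.44 at E14, 7.01 at E15, 6.64 at E16, 6.79 at E17, 6.93 at E18 and 7.63 at P0. It showed the same step, with a slope of 0.43 ± 0.054 (adjusted p = 0.000200), and its P0 level exceeded the E11 level, which lay under log2 5, by at least 6.20-fold.

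The largest step of Cdkn1a between consecutive ages came between E14 and E15, where 1424638_at gained 1.47 and 1421679_a_at 1.57 log2 units. Between E12 and E13 they gained 0.93 and 0.98. Of all probe sets tested, 5.06% gained 1 log2 unit or more between E14 and E15, again 2 single animals with no test. Marker lists of cell types moved between E14 and E15 as well, given here as summed linear levels over 1 probe set per gene. The bulb neuron list summed to 40730 at E15 and 27540 at E14, and the progenitor list to 55204 at E15 and 56350 at E14. The meninges and mesenchyme list (9 genes on the array) summed to 18582 at E15 and 7787 at E14, and over all ages between 2791 at E13 and 26095 at E18. The ensheathing cell list (8 genes) summed to 3704 at E15 and 1057 at E14, with a range from 133.8 at E11 to 6912 at P0, and the red cell list (7 genes) to 3177 at E15 and 23551 at E14. Over all 10864 genes 25.0% rose. Of the markers tested, 7 of 8 rose in the meninges list, 7 of 8 in the ensheathing cell list and 6 of 6 in the microglia list. In the astrocyte list 7 of 7 rose, in the oligodendrocyte lineage list 4 of 6 and in the endothelium list 2 of 5. Sums of the last 4 lists were also higher at E15 than at E14. They were 14369 against 8499 for astrocytes, 2130 against 1271 for microglia, 2064 against 1045 for the oligodendrocyte lineage and 2044 against 1574 for endothelium. A linear sum is led by its highest genes, at E15 Gja1 (13.27) for astrocytes and Npy (11.10) for ensheathing cells. Median log2 levels of these lists were also higher at E15 than at E14, 9.20 against 8.08 for astrocytes and 7.85 against 5.42 for ensheathing cells. Pecam1, Cdh5 and Tie1 of the endothelium, Aif1, Trem2 and Cd68 of microglia, Gfap of astrocytes and Twist1 of mesenchyme read under log2 5 on all arrays. The part of these cells in the course of Cdkn1a was not tested.

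A stretch upstream of Cdkn1a is shown because it holds the p53 element for which the gene is known. Cdkn1a had 2 promoter windows, and the 250 bases before the more upstream start, at chr17:29090729-29090978 on the plus strand (GRCm38.p6), are printed 5′ to 3′ with the match in capitals.
Cdkn1a: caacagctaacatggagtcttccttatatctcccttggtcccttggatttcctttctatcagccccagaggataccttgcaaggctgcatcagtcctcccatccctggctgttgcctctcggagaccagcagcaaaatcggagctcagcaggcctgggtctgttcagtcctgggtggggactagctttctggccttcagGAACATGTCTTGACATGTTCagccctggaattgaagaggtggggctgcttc
The p53 element was searched as 2 adjacent half-sites with the core C and G of each required and at most 1 mismatch elsewhere, a rule set after this sequence had been read. It matched in 22 of 32851 windows (0.067%) and in no other window of the members. The window at the downstream start held 2 GC boxes instead.

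Other genes of the p53 and stress list went both ways. Of 14 listed, 10 were tested, with a median slope of -0.013, against a median of 0.0020 over all 10864 genes. Of the 10, 4 rose, 3 fell and 3 did not pass, where 25.0% of all genes rose and 21.7% fell. Perp, an adhesion protein of desmosomes (0.47 ± 0.067), the kinase Plk2 (0.22 ± 0.069) and the cyclin Ccng1 (0.16 ± 0.027) rose most. Perp read under log2 5 from E11 to E14, 5.26 at E15, 5.44 at E16 and 7.17 at E17. The start of its rise cannot be dated, since values under log2 5 carry a bound only. Gadd45g, a growth arrest gene of newborn neurons (-0.34 ± 0.041), Btg2, a gene of neurogenic divisions (-0.26 ± 0.069), and Mdm2, the ligase that removes p53 (-0.095 ± 0.024), fell.

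Cdkn1b, which encodes the inhibitor p27 of postmitotic neurons, showed no trend. Probe set 1434045_at ranged from 8.53 at E18 to 9.38 at E12 and read 9.25 at P0 and 8.87 at E11 (slope -0.011 ± 0.036, limma adjusted p = 0.823). Probe set 1419497_at ranged from 6.99 at E16 to 8.36 at E12 (slope -0.014 ± 0.061, adjusted p = 0.874). Consecutive ages differed in both directions, and the 2 probe sets correlated weakly (r = 0.23 over 9 arrays). Cdkn1a minus Cdkn1b had a slope of 0.33 ± 0.085 (n = 9 arrays, exact permutation test, p = 0.00716, adjusted p = 0.0108), and over E13 to P0 it was 0.32 and did not pass (exact permutation test, adjusted p = 0.050).

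The INK4 inhibitors moved little. Cdkn2c, whose protein p18 acts in dividing progenitors, read between 7.54 at E18 and 8.57 at E14 on 1416868_at, with 8.05 at P0 and 8.15 at E11 (slope -0.044 ± 0.034, limma adjusted p = 0.316). Cdkn2d, whose protein p19 is kept by postmitotic neurons, read between 8.37 at E12 and 9.01 at E15 on 1416253_at, with 8.78 at P0 and 8.41 at E11 (slope 0.045 ± 0.026, adjusted p = 0.183). Neither slope passed, but the difference between them did: Cdkn2c minus Cdkn2d had a slope of -0.089 ± 0.022 (n = 9 arrays, exact permutation test, p = 0.00719, adjusted p = 0.0108). The difference lay between -0.28 and -0.19 from E11 to E14, and between -1.04 and -0.50 from E15 to P0. This split was placed after the values were seen and was not tested. Over E13 to P0 its slope was -0.10 (exact permutation test, adjusted p = 0.0538).

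**Figure D3:**
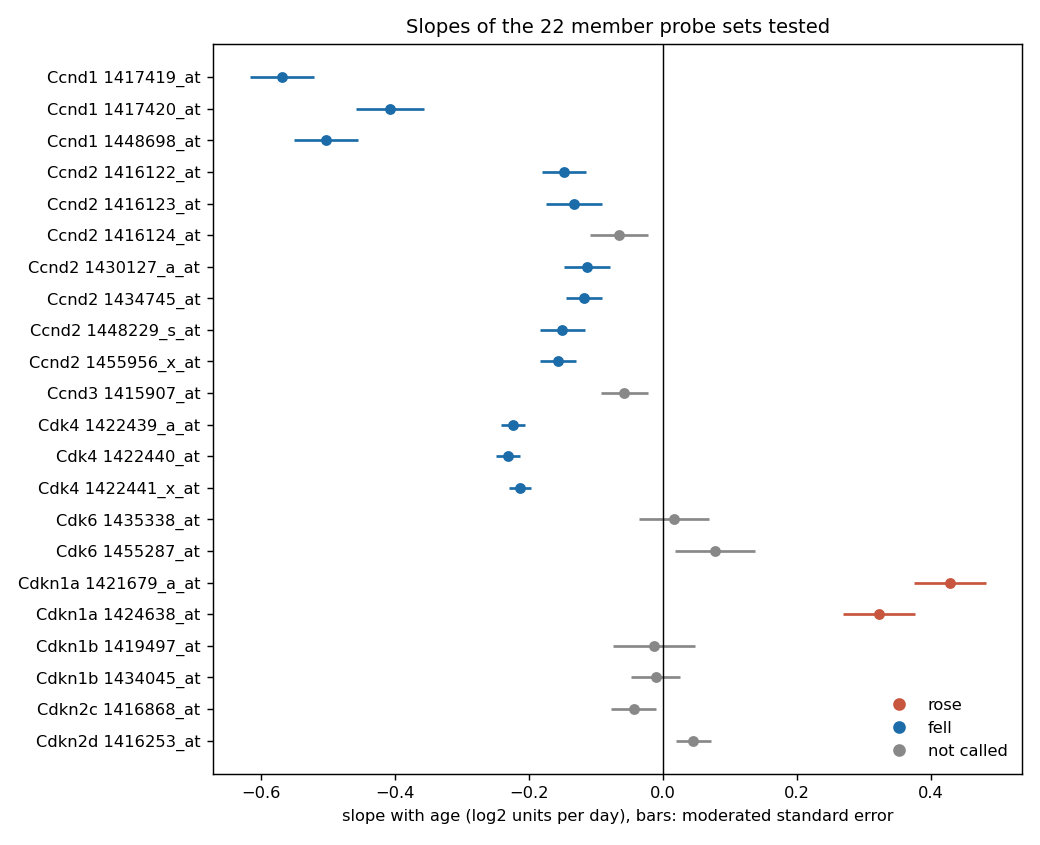
Slope with age in log2 units per day (horizontal axis, bars are the moderated standard error) of each of the 22 tested probe sets (vertical axis), coloured by call. Ccnd1 lies between -0.57 and -0.41, Cdk4 between -0.23 and -0.21, and Cdkn1a at 0.32 and 0.43.

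The partners and targets that act after the D cyclins mostly fell. Of 18 listed partners and targets of the step from G1 to DNA synthesis 17 were tested (median slope -0.22). Of these, 14 fell, 1 rose and 2 did not pass, where 21.7% of all 10864 genes fell and 25.0% rose. E2f1 (-0.35 ± 0.058), the repressor E2f7 (-0.33 ± 0.028) and Ccna2, the cyclin of DNA synthesis (-0.33 ± 0.023), fell most. E2f1 read under log2 5 at E18 (4.32). Ccne1 and Ccne2, the cyclins that follow the D cyclins, fell by less, with slopes of -0.11 ± 0.033 and -0.21 ± 0.039. Among the pocket proteins, Rbl1, which is made by dividing cells, fell (-0.28 ± 0.021), Rbl2, which is kept by resting cells, rose (0.11 ± 0.027), and Rb1 did not pass (-0.015, limma adjusted p = 0.668). Of 11 tested genes for turnover and assembly of G1 regulators 7 fell, 1 rose and 3 did not pass. Skp2, the F-box protein that marks Cdkn1b for breakdown (-0.31 ± 0.032), its cofactor Cks1b (-0.19 ± 0.017) and Cks2 (-0.38 ± 0.020) fell, while the F-box protein Fbxo31 rose (0.18 ± 0.044).

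The other CDK inhibitors gave 2 tested genes of 4. Cdkn3, a phosphatase that acts on cyclin-dependent kinases and is made by dividing cells, fell (-0.46 ± 0.046). It read 6.69 at E11 and under log2 5 from E15 to P0, so that its slope rests in part on values that carry a bound only. Cdkn1c, the inhibitor p57, read 10.60 at P0 and 11.63 at E11 and did not pass (-0.022, limma adjusted p = 0.791). Cdkn2a and Cdkn2b did not pass the filter. Among 13 tested genes of growth signals 5 rose, 5 fell and 3 did not pass, where 25.0% of all 10864 genes rose and 21.7% fell. Foxo1, a factor held back by insulin signals (0.43 ± 0.054), Id1 (0.40 ± 0.075) and Id3 (0.36 ± 0.055), inhibitors of helix-loop-helix factors, rose most. Id1 read under log2 5 from E12 to E14. Gli2, a Shh effector (-0.30 ± 0.028), Id4 (-0.30 ± 0.034) and the centrosome protein Cdk5rap2 (-0.22 ± 0.036) fell most.

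Of 12 tested genes of quiescence and antiproliferative action 4 rose, 2 fell and 6 did not pass. Over all 10864 genes 25.0% rose and 21.7% fell, so that this list lay near the shares of all genes. Klf9, a factor of maturing neurons and glia, rose most (0.59 ± 0.048) and read 11.50 at E15 and 9.44 at E14, a step between the same arrays as that of Cdkn1a. Klf4 (0.34 ± 0.064), which read under log2 5 from E11 to E15, and Btg1 (0.16 ± 0.032) rose too. Lin9 (-0.15 ± 0.032) and Lin54 (-0.15 ± 0.028), subunits of a complex that controls cell cycle genes, fell. All 11 tested genes of the proliferation readout fell, at a median slope of -0.36, with Plk1 and Aurka (both -0.46) and Mcm3 (-0.43) steepest. Slopes of Ccnd1 (-0.57 to -0.41) lay beyond that median, and those of Cdk4 (-0.23 to -0.21) and Ccnd2 short of it, differences that were not tested. Of 12 genes of postmitotic neurons 10 rose, 0 fell and 2 did not pass, led by Nefl (0.64 ± 0.074), Syt1 (0.41 ± 0.093) and Snap25 (0.37 ± 0.045).

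**Figure D4:**
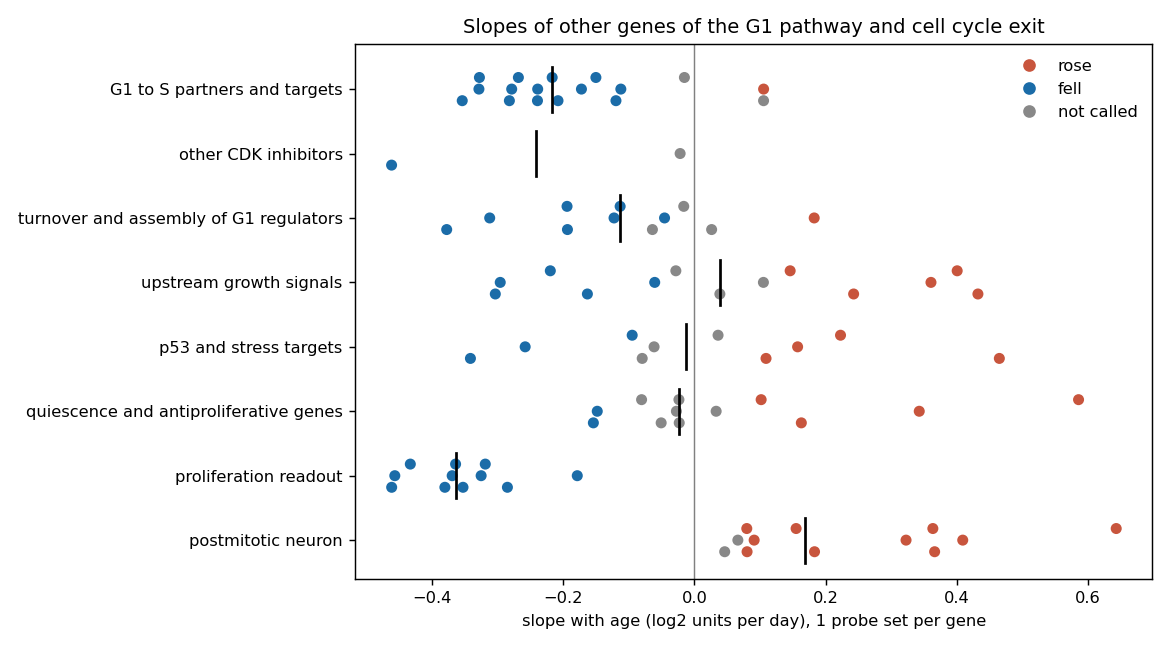
Slope with age (horizontal axis, log2 units per day) of the tested genes of 8 lists (rows), 1 point per gene, coloured by call, with the list median as a black bar. The medians of the G1 to S list (-0.22) and the proliferation readout (-0.36) lie left of 0, with Rbl2 and E2f5 of the G1 to S list right of it, and all points of the postmitotic list lie right of 0.

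The genes whose courses most resembled each member over the 9 arrays were taken from 10855 other genes, 3 for each member, as a description in which all points share the arrays and their ages. Ccnd1 was nearest to Pot1a (r = 0.99), Wdr90 and Skp2, and 751 genes reached r above 0.9 with it. Cdk4 was nearest to Mcm7, a subunit of the replicative helicase (r = 0.998), Rad54l, a recombination protein, and E130114P18Rik, and 915 genes reached r above 0.9. Cdkn1a was nearest to Slc32a1, the transporter that loads GABA into synaptic vesicles (r = 0.98), Tmed3 and S100a16, with 581 genes above 0.9. Ccnd2 was nearest to the neuronal factor Sox11, Fancf and Kbtbd2 (all r = 0.97), and Ccnd3 to Rida, Nars2 and Znrd1as. Fewer genes ran with the rest. Cdk6 had 6 genes above 0.9, led by Eef1e1 (r = 0.96), Ccdc50 and Nkrf, and Cdkn2d had 11, led by Foxred2, Bin1 and Pcdhb3. Cdkn1b had 2, Zfp229 (r = 0.94) and Chrna4, before Pogz, and Cdkn2c had 2, the kinase gene Cdk13 (r = 0.96) and Pggt1b, before Hnrnph1.

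**Figure D5:**
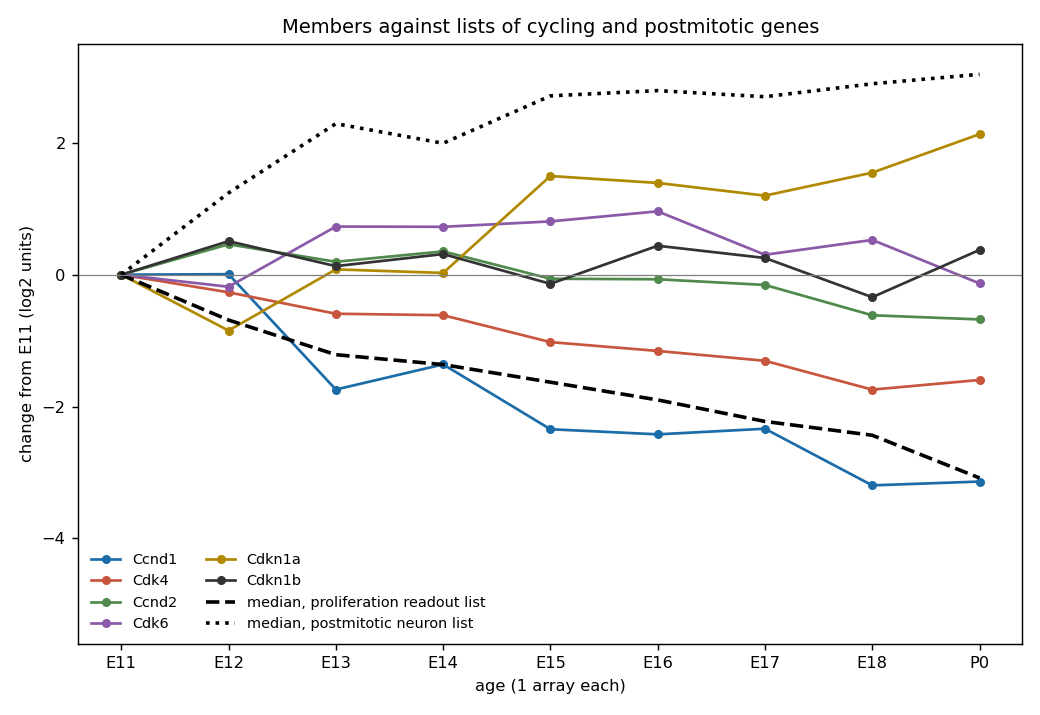
Change from E11 in log2 units (vertical axis) at each age (horizontal axis, 1 array each) of 6 members by their probe set with the highest mean, with the median of the proliferation readout (dashed) and postmitotic neuron (dotted) lists. The change at P0 was -3.14 for Ccnd1, -1.60 for Cdk4, -0.68 for Ccnd2 and 2.13 for Cdkn1a.

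The median log2 value of an array lay between 4.08 at E11 and 4.23 at E16, and was 4.20 at P0. With these medians centred, 3539 of 18581 probe sets rose and 5167 fell, against 4103 and 4089 of 18566 without centring. The members kept 12 falling and 2 rising probe sets. Summed linear levels of the bulb neuron markers lay between 15374 and 51796, and those of the progenitor markers between 55204 and 62580. Not every marker was present throughout: Tbx21 read 2.40 at E11, and Nr2e1 3.49 at P0. Fabp7, the progenitor marker with the highest level, read 14.46 at E11 and 15.34 at P0, while Nes read 10.47 and 7.52. The progenitor sum thus does not follow most of its genes. Of 11 bulb neuron markers 9 rose, and of 10 progenitor markers 8 fell, where 25.0% of all 10864 genes rose and 21.7% fell. Red cell markers summed to 200.2 at P0 and 79217 at E11, and 4 of the 5 tested fell over the ages at which Ccnd1 and Cdk4 fell. Of the nasal epithelium list, Omp, Cnga2, Gng8, Krt8 and Krt18 read under log2 5 on all arrays, while both tested members rose: Gnal read 8.77 at P0 and 3.73 at E11, and Adcy3 7.70 at P0 and 5.26 at E11. The sum of that list was 689.9 at P0 and 100.01 at E11. The difference between 3′ and 5′ probe sets of actin lay between 1.48 and 1.90 log2 units. That of Gapdh was 1.55 at E11, 1.77 at E12 and 1.67 at E13, and from E14 to P0 it lay higher, between 1.87 and 2.12. The part of RNA quality in the courses was not tested.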

How the data were processed

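Total RNA of 9 CD1 olfactory bulbs, 1 animal per age, was amplified, biotin-labelled and hybridised to Affymetrix arrays, per the labels' protocols. The deposited values were log2 levels per probe set made with GCRMA, per the submitters' processing notes (version not given in the sources used here). GCRMA removes background estimated from each probe's bases, and then puts the arrays on a shared distribution. The log2 scale was inferred from the values, which ran from 1.16 to 15.9. The number of arrays limits the precision.

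Names came from the platform annotation (34958 probe sets with 1 symbol, 932 with several, 9211 with none), and 0 of 34754 symbols changed when looked up by Entrez ID. Probe sets with 1 symbol reading log2 5 or more on at least 2 arrays were fitted against age (P0 as day 19) with limma 3.58.1 in R 4.3.3, with moderated variance trended on the mean and 7 residual degrees of freedom. Folds set values under 5 to 5. Peaks needed a squared term past the test and a turning point between day 12 and day 18. Paralog pairs were tested by exact permutation over all 362880 orders. Procedures were tested on simulated data. Alternatives changed the filter, scaling, day of P0, floor, test, variance, probe set rule, ages and arrays.

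Named genes were the members, in each pathway list the 3 steepest rising and 3 steepest falling genes past the threshold, every gene of a list of 5 or fewer, and for each member the 3 genes with the highest r. Mycl, Mycn, Myc, Ccne1, Ccne2, Rbl1 and Rb1 were named outside this rule. The members and lists were chosen with earlier results of these data known.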

Additional observations from a re-analysis of the deposited data

How the results depend on the processing

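The 12 falling and 2 rising member probe sets belonged to Ccnd1, Ccnd2, Cdk4 and Cdkn1a. Under the 19 alternatives for the slope each of these genes kept at least 1 call in its direction, and a Cdk6 probe set also rose without the P0 array. The call of Ccnd2 1416123_at also ended without a filter (adjusted p = 0.0549), and by exact rank correlation it and 1430127_a_at did not pass (0.0569 and 0.0951). The Cdk6 peak ended too without a filter (0.0925), with median centring (0.0532) and with no variance trend (0.0517). Over all probe sets, peaks numbered 755 and dips 160, against 188 and 64 without a filter, and 203 to 736 and 30 to 140 with 1 array left out. Falling probe sets numbered 4089 of 18566, against 2382 of 10864 with 1 probe set per gene, where fewer were tested. Over E13 to P0, with fewer arrays, 2142 rose and 2012 fell. In that age range the slopes of the paralog differences were -0.11 for Ccnd1 minus Ccnd2, -0.19 for Ccnd2 minus Ccnd3, -0.074 for Cdk4 minus Cdk6, 0.32 for Cdkn1a minus Cdkn1b and -0.10 for Cdkn2c minus Cdkn2d. Ccnd2 minus Ccnd3 ranged from -0.16 to -0.021 and Cdk4 minus Cdk6 from -0.31 to -0.18 with 1 array left out. The signs that turned belonged to terms that had not passed. Over E13 to P0 the slope was 0.026 for Ccnd3, -0.12 for Cdk6 1435338_at and -0.054 for Cdk6 1455287_at, and with median centring it was -0.0016 for Cdk6 1435338_at. With 1 array left out, slopes ranged from -0.081 to 0.0010 for Ccnd3, -0.021 to 0.082 for Cdk6 1435338_at, -0.038 to 0.021 for Cdkn1b 1434045_at and -0.081 to 0.037 for Cdkn1b 1419497_at. The squared term of Cdkn1b 1434045_at was 0.00088 with quantile normalization, 0.0024 with median centring and 0.0034 with P0 at day 20, and that of Cdkn1a 1424638_at was -0.0074 with P0 at day 20. With 1 array left out, squared terms ranged from -0.032 to 0.012 for Ccnd2 1416122_at, -0.024 to 0.0095 for 1416124_at, -0.029 to 0.0038 for 1448229_s_at and -0.027 to 0.0011 for 1455956_x_at. They ranged from -0.00081 to 0.011 for Cdk4 1422439_a_at, -0.0021 to 0.011 for 1422441_x_at, -0.045 to 0.021 for Cdkn1a 1424638_at, -0.025 to 0.017 for Cdkn1b 1434045_at and -0.023 to 0.046 for 1419497_at. The cause of the other changes was not tested. No paired analysis was possible because each age had 1 animal, and probe sets under log2 5 carry a bound only.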
